A study of Homo sapiens with 4 samples.

Results

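Serpins are a large family of protein inhibitors that trap serine or cysteine proteases by a one-way change of shape: the protease cuts an exposed loop, the loop folds into the body of the serpin, and the enzyme stays bound and distorted. Human serpins fall into 9 clades, A to I. Clade A members are mostly secreted by the liver into plasma, clade B members lack a classical signal peptide and mostly act inside cells, and the small clades C to I hold inhibitors of coagulation, fibrinolysis and complement, a collagen chaperone and neuronal members. Some serpins inhibit no protease and instead carry hormones, assist protein folding or act in other ways. In lung tissue the family is known for the restraint of neutrophil elastase.

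The members described here are all genes with at least 1 probe set annotated to that gene alone and a symbol that starts with SERPIN. Serpin genes without such a probe set are not covered, so the clades and chromosome rows below can lack genes. The rule gave 31 genes, measured by 49 probe sets, of 19741 genes and 41039 single-gene probe sets in all. They were measured on 4 Affymetrix expression arrays of 2 human lung adenocarcinoma lines, CL1-5 and the less invasive CL1-0 from which it was derived. The 4 groups were CL1-5 expressing a control shRNA, CL1-5 expressing G9a shRNA2, CL1-0 expressing a control vector and CL1-0 expressing HA-G9a, with 1 array each. G9a, encoded by EHMT2, is a methyltransferase that modifies lysine 9 of histone H3, and the study set cells with less or more of it against their controls. The populations of all 4 groups were stably transduced and selected with puromycin, and whether each was a pool or a clone is not given in the sources used here. G9a was reduced by a single shRNA. It was lowered in one line and raised in the other, and so the line and the direction of the change in G9a cannot be told apart.

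With 1 array per group there is no replicate check within a line, and no p-value is given there. Levels are given as scaled signals: the deposited MAS5 intensity of a probe set divided by 1 number per array (CL1-5 control 0.947, knockdown 1.26, vector 0.952, HA-G9a 0.904), which brought the arrays to a common level. Precision is limited by the small number of arrays. A gene was called bright when its scaled signal reached 83.8, the 75th percentile of all signals, on at least 1 array. It was called dim when its highest signal lay between the median of all signals, 12.4, and that value, and background when all 4 signals lay below 12.4. Signals of different probe sets depend on their probes, so levels were compared between arrays and not between genes. The targeted gene followed the labels: the scaled signal of EHMT2 was 397 in the CL1-5 control, 22.3 in the knockdown, 441 in the CL1-0 vector and 953 with HA-G9a.

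Cell markers were measured beside the serpins. The labels give the type II alveolar cell as the cellular basis of the tumour, and none of the 8 type II markers on the array reached 83.8 on any array. Surfactant protein C, encoded by SFTPC, had signals of 35.4, 23.7, 22.4 and 7.44 in the order CL1-5 control, knockdown, vector and HA-G9a. NKX2-1, the lung lineage factor, had 31.2, 3.08, 32.8 and 66.6. Keratin 18 (KRT18) lay between 572 and 3110 and vimentin (VIM) between 4150 and 5600, while keratin 19 (KRT19) reached at most 1.39 and EPCAM at most 25.9. Some of these markers moved with the knockdown: E-cadherin (CDH1) was 2.5 in the CL1-5 control and 61.7 with G9a shRNA, fibronectin (FN1) 194 and 25.7, and N-cadherin (CDH2) 47.2 and 13.5. The epithelial markers did not move together. EPCAM was 6.4 and 14.4 in the same order, while keratin 8 (KRT8) was 800 and 258 and KRT18 3110 and 2010. Their part in the serpin differences was not tested. In bulk RNA like this, fewer cells of a type and less RNA per cell cannot be told apart.

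Most serpin genes gave no signal above the middle of the array in these cells. Of the 31 members, 8 were bright (25.8%), 6 were dim and 17 were background (54.8%). Of all 19741 genes, 44.4% were bright and 29.6% were background. The bright members were SERPINB1, SERPINB5, SERPINB8, SERPINB9, SERPINE2, SERPING1, SERPINH1 and SERPINI1. By clade, bright genes made up 4 of the 12 in clade B, none of the 10 in clade A, none of the single members of clades C and D, none of 2 in clade F, the single members of clades E, G and H, and 1 of 2 in clade I. The members at or above the 75th percentile numbered 7 in the CL1-5 control and 6 in the knockdown, against 2 in each CL1-0 array, while the share of all genes above that level lay between 38.5% and 39.2% on every array.

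**Figure D1:**
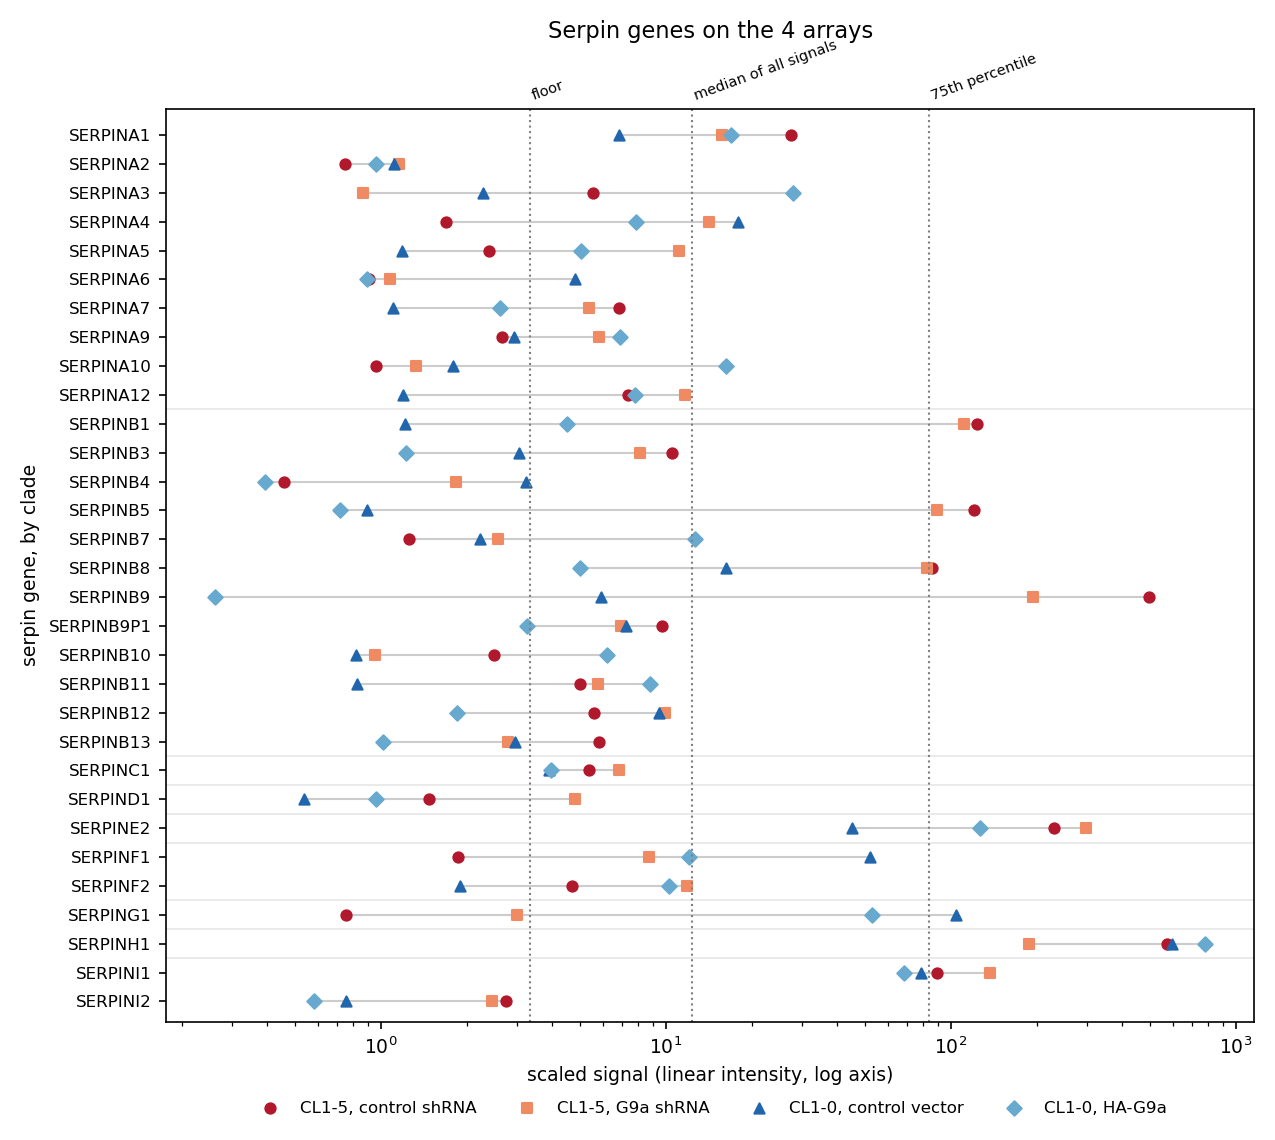
Scaled signal (linear intensity on a log axis) of each of the 31 serpin genes, ordered by clade, with 1 point per array and a grey line from the lowest to the highest array. Dotted lines mark the floor of 3.33, the median of 12.4 and the 75th percentile of 83.8. SERPINB1, SERPINB5 and SERPINB9 sit right of the median on both CL1-5 arrays and left of it on both CL1-0 arrays, and SERPING1 lies the other way round.

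Clade B held 3 members that were high in CL1-5 and below the median of all signals in CL1-0. SERPINB1, the inhibitor of leukocyte elastase and related neutrophil proteases, had scaled signals of 124 in the CL1-5 control, 111 in the knockdown, 1.22 in the vector and 4.49 with HA-G9a. SERPINB5, called maspin, which is not known to inhibit a protease and is studied as a tumour suppressor of epithelia, had 121, 89.3, 0.897 and 0.717. SERPINB9, the inhibitor of granzyme B that protects cells from the granules of cytotoxic lymphocytes, had 495, 194, 5.92 and 0.263. For all 3 the CL1-5 arrays were high, and the CL1-0 arrays lay below the median of the array. Signals under the floor of 3.33, the 25th percentile of all signals, were raised to it before ratios were taken, so a ratio against them is a lower bound. Between the control arrays SERPINB1 was at least 37.3-fold higher in CL1-5, SERPINB5 at least 36.5-fold and SERPINB9 83.7-fold.

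SERPINB1 and SERPINB9 are neighbours on chromosome 6, and their promoter windows are shown because both were high in CL1-5 and low in CL1-0. The windows run from 250 bases before to 50 bases after the annotated start, come from RefSeq on build GRCh38.p14, and lie on the minus strand at chr6:2841814-2842113 for SERPINB1 and chr6:2903260-2903559 for SERPINB9. They are written 5′ to 3′ along the gene, and capitals mark CpG dinucleotides, the sites of DNA methylation.
SERPINB1: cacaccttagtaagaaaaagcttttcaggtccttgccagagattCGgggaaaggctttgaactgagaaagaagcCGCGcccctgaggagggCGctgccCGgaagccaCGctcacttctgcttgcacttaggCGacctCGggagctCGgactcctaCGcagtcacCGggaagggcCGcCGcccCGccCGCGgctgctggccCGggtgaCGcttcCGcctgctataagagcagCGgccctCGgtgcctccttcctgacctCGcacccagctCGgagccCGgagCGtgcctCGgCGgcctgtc
SERPINB9: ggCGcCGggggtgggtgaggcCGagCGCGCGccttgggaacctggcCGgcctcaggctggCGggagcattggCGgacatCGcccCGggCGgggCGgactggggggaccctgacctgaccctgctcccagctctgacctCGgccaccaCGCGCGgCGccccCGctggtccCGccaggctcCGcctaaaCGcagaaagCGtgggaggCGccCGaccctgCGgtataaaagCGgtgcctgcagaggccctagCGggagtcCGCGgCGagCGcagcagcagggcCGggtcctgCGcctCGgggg
The SERPINB1 window held 27 CpG and the SERPINB9 window 35, against a median of 14 over all 35116 windows of the table. DNA methylation was not measured on these arrays.

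Other probe sets bore on the same genes. Of the 4 SERPINB1 probe sets, a further pair passed the filter, with signals of 123, 114, 0.7 and 0.569 and of 43.1, 45.1, 0.921 and 4.02, and both were high on the CL1-5 arrays alone. SERPINB9 had 2 more, with 49.6, 24.5, 1.2 and 2.27 and with 24, 20.3, 1.36 and 4.68, again high on the CL1-5 arrays. SERPINB5 had another at background on all arrays. The pseudogene SERPINB9P1, which lies between SERPINB1 and SERPINB9, reached at most 9.7 on any array.

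SERPINB8, an inhibitor of furin-type proteases, had scaled signals of 86.1, 82.4, 16.2 and 4.98. It was high on both CL1-5 arrays, 5.31-fold higher in the CL1-5 control than in the vector, and lowest with HA-G9a. Its other probe set disagreed, with 10.9, 12.2, 16.9 and 8.08, and was lower in the CL1-5 control than in the vector by a log2 ratio of -0.63, so the line difference rests on 1 probe set. SERPINB7, called megsin and known from epidermis and kidney mesangium, had 1.26, 2.57, 2.23 and 12.7 and was above the median of all signals on the HA-G9a array alone.

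SERPINB5 and SERPINB8 are the ends of the serpin row on chromosome 18. Their windows are shown because each held a match to TGANTCA, a pattern that reads the same on both strands. It is a loose form of the AP-1 site, the binding sequence of JUN and FOS family factors. Any middle base is allowed, so a match need not be the strict site. They lie on the plus strand of GRCh38.p14 at chr18:63476708-63477007 and chr18:63969831-63970130, and capitals mark the matches.
SERPINB5: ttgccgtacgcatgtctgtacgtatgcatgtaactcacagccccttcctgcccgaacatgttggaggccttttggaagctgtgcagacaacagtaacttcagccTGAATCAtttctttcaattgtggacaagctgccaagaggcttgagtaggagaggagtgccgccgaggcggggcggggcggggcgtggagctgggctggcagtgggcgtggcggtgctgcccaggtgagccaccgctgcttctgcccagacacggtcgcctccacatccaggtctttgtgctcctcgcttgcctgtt
SERPINB8: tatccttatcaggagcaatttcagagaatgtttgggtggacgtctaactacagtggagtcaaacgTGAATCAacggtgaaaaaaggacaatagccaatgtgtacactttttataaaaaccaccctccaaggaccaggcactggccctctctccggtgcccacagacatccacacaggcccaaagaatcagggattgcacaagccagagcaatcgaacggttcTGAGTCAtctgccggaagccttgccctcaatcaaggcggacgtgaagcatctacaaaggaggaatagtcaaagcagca
The match in SERPINB5, TGAATCA, began 146 bases before the start. Those in SERPINB8, TGAATCA and TGAGTCA, began 185 and 28 bases before it. Matches were found in 7 of 33 serpin windows, against 7.71% of all windows, and the others were in SERPINB7 (windows 2 and 3), SERPINB12, SERPINB13 and SERPINI2. Genes that were bright, dim and background all had a match among them. The interferon regulatory factor core, searched as GAAANNGAA on both strands, was in 1 serpin window, of SERPINB12, and in 8.11% of all windows. A match is a description of the letters and does not show a bound site.

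The remaining clade B members were background on all arrays. SERPINB3 and SERPINB4, the squamous cell carcinoma antigens, lay between 1.23 and 10.5 and between 0.394 and 3.22. They are near-identical copies whose probes can share targets, so their values are uncertain, and a probe set annotated to both gave 8.88, 7.07, 1.6 and 12.3. SERPINB10, a serpin of blood-forming cells, reached at most 6.2, SERPINB11 8.79, SERPINB12 9.92, and SERPINB13, an inhibitor of cathepsins from keratinocytes, 5.84. Markers of squamous cells, a main site of these genes, summed to 25.6 to 47.3 over the 5 on the array, and SPRR1A was the only one of the 5 that reached the median on any array.

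Clade A gave weak signals throughout. SERPINA1, which encodes alpha-1 antitrypsin, the plasma inhibitor of neutrophil elastase, had 27.6 in the CL1-5 control, 15.7 in the knockdown, 6.86 in the vector and 16.9 with HA-G9a. The CL1-5 arrays and the CL1-0 arrays overlapped. Another of its probe sets gave 19.0, 7.07, 0.25 and 2.1, with the same order of the lines, and another gave 11.6, 10.1, 9.5 and 13.1 with little difference. SERPINA3, the antichymotrypsin that inhibits cathepsin G, had 5.54, 0.867, 2.28 and 27.9. SERPINA10, a cofactor-dependent inhibitor of coagulation factor Xa, had 0.966, 1.33, 1.79 and 16.3. Both were above the median of the array with HA-G9a alone. SERPINA4, the kallikrein inhibitor kallistatin, had 1.69, 14.2, 17.9 and 7.85, with the lowest value in the CL1-5 control.

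The other clade A members were background. They were SERPINA5 (protein C inhibitor), SERPINA6 (the corticosteroid carrier of plasma), SERPINA7 (the thyroxine carrier), SERPINA9, SERPINA12 (vaspin, known from fat tissue) and the pseudogene SERPINA2, with signals between 0.751 and 11.7. Hepatocyte markers, which stand for the main site of this clade, were low as well. Of the 6 on the array 1 reached the median on each array, albumin (ALB) lay between 0.426 and 6.42, and the summed level ran from 31.6 in the CL1-5 control to 79.8 in the vector.

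The small clades held the other 4 bright genes. SERPINE2, called protease nexin-1, an inhibitor of thrombin and urokinase that binds to the cell surface, had scaled signals of 231 in the CL1-5 control, 297 in the knockdown, 45.0 in the vector and 127 with HA-G9a. It was high in both CL1-5 populations, 5.14-fold higher in the CL1-5 control than in the vector, and in CL1-0 it was higher with HA-G9a than with vector. Its other probe set gave 0.814, 1.64, 0.465 and 0.521, below the floor on all 4 arrays, so these differences rest on 1 probe set. SERPING1, the C1 inhibitor that blocks the first proteases of complement and the contact system, had 0.753, 3.01, 104 and 52.8. It was measured in CL1-0 alone, where the vector array was at least 31.4-fold above the CL1-5 control. SERPINF1, called PEDF, a secreted protein that restrains vessel growth and inhibits no protease, had 1.86, 8.75, 52.1 and 12.1. It was highest with the vector, at least 15.7-fold above the CL1-5 control.

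SERPINH1 reached 83.8 on all 4 arrays, and SERPINI1 reached it on the CL1-5 arrays alone. SERPINH1 encodes HSP47, a chaperone of the endoplasmic reticulum that binds procollagen and inhibits no protease, and had 573, 188, 599 and 778. The knockdown array was the low one, and the other 3 lay between 573 and 778. SERPINI1, or neuroserpin, an inhibitor of tissue plasminogen activator best known from neurons, had 89.4, 137, 78.5 and 68.6 and was highest on the knockdown array. Of 4 neuronal markers, none reached 83.8 on any array, and their sum was 79.7, 38.8, 152 and 158 in the same order, so it did not follow SERPINI1.

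SERPINC1 (antithrombin), SERPIND1 (heparin cofactor II), SERPINF2 (the plasmin inhibitor alpha-2 antiplasmin) and SERPINI2 (known from pancreas) were background on all 4 arrays. Their highest signals were 6.87, 4.8, 11.9 and 2.75. Over all 17 background members signals ran from 0.394 to 11.9, and 3 of them were at or below the floor on every array.

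SERPINH1, SERPINB9 and SERPINA4 differed by 2-fold or more when G9a was lowered in CL1-5. In the comparison of G9a shRNA with control shRNA, 9 members had at least 1 of both arrays at or above the median and were measured. SERPINH1 was 188 after the knockdown and 573 in the control, a log2 ratio of -1.61. SERPINB9 was 194 against 495, a log2 ratio of -1.35, and its other probe sets gave -1.02 and -0.24. SERPINA4 was 14.2 against 1.69, at least 4.27-fold higher, and it passed the filter through the knockdown array alone, so a higher value was built into its selection. These were the 1 member higher and the 2 lower by 2-fold or more. Of all 12640 genes measured, 7.33% were higher by that margin and 8.29% lower. The spread between probe sets of one gene served as a technical yardstick, with a pooled SD of 0.52 in log2, or 0.29 among probe sets past the 75th percentile.

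By their brightest probe set the other 6 members measured in CL1-5 stayed within 2-fold. SERPINI1 had a log2 ratio of 0.61, SERPINE2 of 0.36, SERPINA1 of -0.81, SERPINB5 of -0.44, SERPINB1 of -0.17 and SERPINB8 of -0.06. Another probe set of SERPINA1 was past 2-fold, at -1.43. With signals as deposited SERPINB1 was at 0.24 and SERPINB8 at 0.35, so their direction depends on the scaling. The ratios of SERPINB1 and SERPINB8 were smaller than either yardstick SD, and those of SERPINB5 and SERPINE2 lay between the 2 SDs. The median over the 9 was -0.17, against -0.01 over all genes measured. Used as deposited without scaling, the knockdown array is brighter as a whole, and then 5 members were at least 2-fold higher and 1 lower.

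Expression of HA-G9a in CL1-0 went with more members past 2-fold, most of them dim. In that comparison 11 members were measured, of which 5 were higher and 3 lower by 2-fold or more. Over all 13081 genes measured the shares were 6.04% higher and 3.91% lower. SERPINE2 was 127 with HA-G9a and 45.0 with vector, 2.83-fold higher, and was the one bright member among the 5. SERPINA3 was at least 8.39-fold higher, SERPINA10 at least 4.91-fold, SERPINB7 at least 3.82-fold and SERPINA1 2.46-fold, and none of the 4 exceeded 27.9 on any array. The other measured probe set of SERPINA1 gave a log2 ratio of 0.46. SERPINE2 was the one member past 2-fold that reached 12.4 on both arrays. The other higher members passed the filter through the HA-G9a array alone and the lower members through the vector array alone, so a difference was built into their selection. On the log2(signal + 16) scale, which damps dim genes, 2 members were 2-fold higher and 1 lower. The yardstick SD was 0.53, or 0.26 past the 75th percentile.

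On the lower side, SERPINF1 was 12.1 with HA-G9a against 52.1 with vector, 4.3-fold lower. SERPINB8 was 4.98 against 16.2, 3.26-fold lower, and its other probe set gave a log2 ratio of -1.07. SERPINA4 was 2.29-fold lower. SERPING1 was 52.8 against 104, a log2 ratio of -0.98 that lay just inside the 2-fold threshold. SERPINH1 had a log2 ratio of 0.38 and SERPINI1 of -0.19. SERPINB1, SERPINB5 and SERPINB9, the members high in CL1-5, stayed below the median on both CL1-0 arrays and were not measured there. The median over the 11 was 0.38, against -0.00 over all genes measured.

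**Figure D2:**
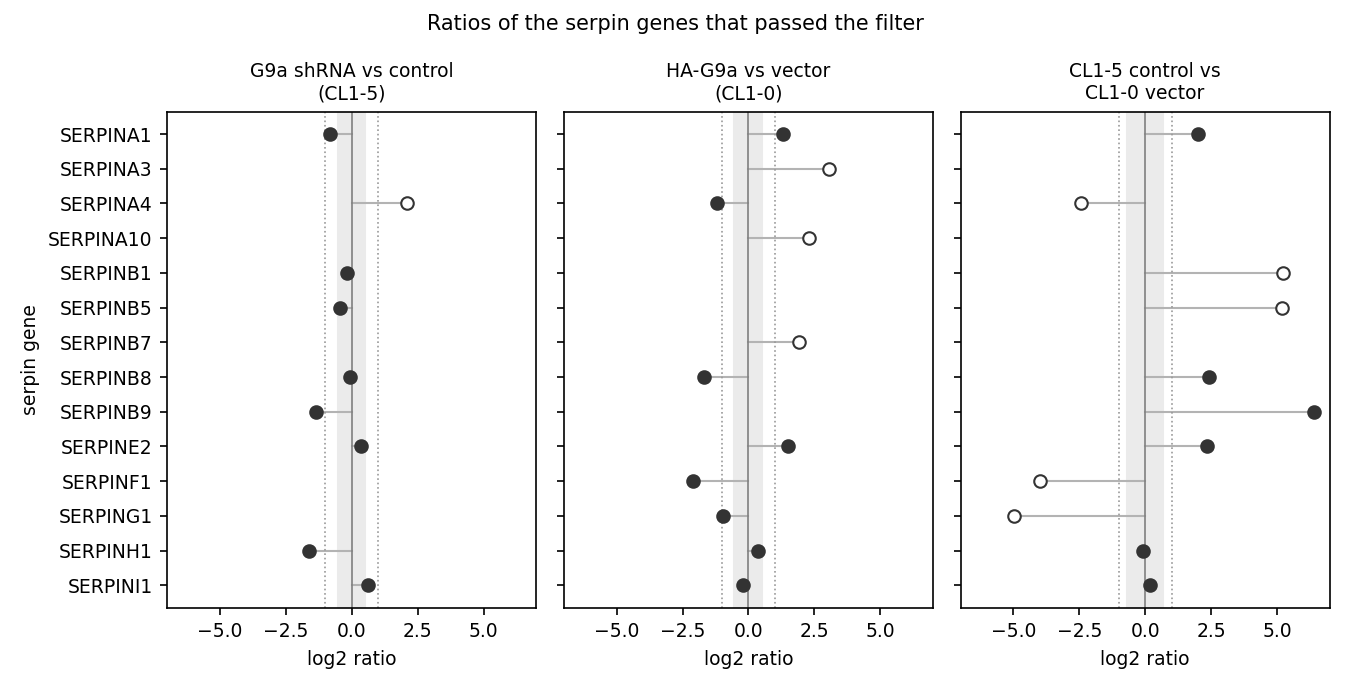
Log2 ratios of the 14 serpin genes that passed the filter on at least 1 array, in the knockdown, HA-G9a and control comparisons. Open circles are lower bounds, the dotted lines mark 2-fold and the grey band is plus or minus 1 pooled SD between probe sets of one gene; a missing circle means that both arrays were below the median. The spread of the points is wider in the right panel, between the lines, than in the other two.

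Few serpins could be read in both perturbations. Of the members, 6 were measured in both, and 4 of them had ratios of opposite sign. The share of opposite signs over all genes was not computed, so the count is a description of these 6 alone. SERPINH1 was lower after the knockdown (-1.61) and had a ratio of 0.38 with HA-G9a. SERPINI1 had 0.61 and -0.19, SERPINA1 -0.81 and 1.30, and SERPINA4 2.09 and -1.19. SERPINE2 had 0.36 and 1.5, and SERPINB8 had -0.06 and -1.70, with the same sign in each. SERPINA4 was the only member past 2-fold in both, and it passed the filter through 1 array in each, with signals of at most 17.9. In CL1-0 SERPINA1 and SERPINB8 also passed the filter through 1 array alone. Small ratios have no settled sign: scaled on the hybridization controls, SERPINB8 was at 0.22 after the knockdown and SERPINI1 at 0.08 with HA-G9a. The 2 comparisons use different arrays, and neither has replicates.

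The control populations of the lines were also compared directly. In the controls-only comparison 11 members were measured, 6 of them higher in the CL1-5 control and 3 lower by 2-fold or more. Over all 13104 genes measured, 12.7% were higher and 13.3% lower by that margin. The higher members were SERPINB9, SERPINB1, SERPINB5, SERPINB8, SERPINE2 and SERPINA1, at log2 ratios of 6.39, 5.22, 5.19, 2.41, 2.36 and 2.01. The lower members were SERPING1, SERPINF1 and SERPINA4, at -4.97, -3.97 and -2.43. SERPINH1, at -0.07, and SERPINI1, at 0.19, differed by less than the yardstick SD of 0.67. The median over the 11 was 2.01, against -0.01 over all genes. Most of these members passed the filter through 1 line alone, so a large ratio was built into their selection, and the counts are a description. The same 2 control arrays also serve the within-line comparisons.

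Both CL1-5 arrays were set against both CL1-0 arrays with limma, a linear model with a spread shared across genes, which left 2 residual degrees of freedom. The 2 arrays of a line are a control and a perturbed population and not labelled replicates, so any effect of G9a counts as spread within a line, and p-values measure only the spread between these arrays. Of 14 members tested, 3 were called higher in CL1-5 and 1 lower at an adjusted p under 0.05 (limma, Benjamini-Hochberg over 13895 genes), and 6 had an unadjusted p under 0.05. Over all genes 1.04% were called higher and 1.53% lower. SERPINB9 was higher by 6.13 on the log2 scale (SE 0.59, limma adjusted p = 0.0317). SERPINB5 was higher by 4.97 (SE 0.26, limma adjusted p = 0.0127) and SERPINB1 by 4.92 (SE 0.26, limma adjusted p = 0.0135). SERPING1 was lower, at -4.48 (SE 0.40, limma adjusted p = 0.0290). For each of the 4, every CL1-5 array lay on one side of every CL1-0 array, as they did for 9 of the 14 members and for 57.9% of all genes tested. All 4 rest in part on signals raised to the floor. Both CL1-0 signals of SERPINB5 and both CL1-5 signals of SERPING1 were raised to it, which leaves no spread between them. Each of the 4 passed the filter through 1 line alone, so a difference was built into its selection. With no filter, limma called none of them.

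The other members did not pass. SERPINB8 had a difference of 3.23 (SE 0.63, limma adjusted p = 0.0922), with a 95% interval from 1.5 to 4.96, and SERPINE2 one of 1.79 (SE 0.58, limma adjusted p = 0.178). SERPINF1 had -2.22 (SE 0.90, limma adjusted p = 0.248), SERPINH1 -1.06 (SE 0.61, limma adjusted p = 0.377) and SERPINI1 0.59 (SE 0.30, limma adjusted p = 0.332). For SERPINA1, SERPINA3, SERPINA4, SERPINA10 and SERPINB7 the adjusted p lay between 0.392 and 0.622. The limma calls need all 4 arrays. With any 1 array left out limma called 0 genes of the whole array, and between 4 and 8 members had an unadjusted p under 0.05. SERPINB1, SERPINB5, SERPINB9 and SERPING1 were among them each time, and the others differed with the array left out. A limma model with both line and G9a arm also called 0 genes, with 8 members at an unadjusted p under 0.05.

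Serpin genes sit in rows on a few chromosomes, and the rows were not uniform. The RefSeq gene table of GRCh38.p14 was used for gene order only. On chromosome 6, SERPINB1, SERPINB9P1 and SERPINB9 lie next to each other, and the 2 outer genes were high in CL1-5 and low in CL1-0 while the pseudogene between them was background. Their nearest measured neighbours were bright in both lines: WRNIP1 had 788, 878, 406 and 425, and NQO2 had 562, 805, 508 and 591. On chromosome 18 the 9 members run from SERPINB5 to SERPINB8. The 2 ends were high on the CL1-5 arrays, and none of the 7 members between them reached the median on a CL1-5 array. Serpin genes of these rows that are not members were not examined. VPS4B, beside SERPINB5, had 393, 441, 339 and 274, while CDH7 and CDH19, beside SERPINB8, were background. The 9 clade A members on chromosome 14, from SERPINA10 to SERPINA3, were dim or background throughout. GSC beside them was background, and DICER1 beyond it was bright on all arrays.

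**Figure D3:**
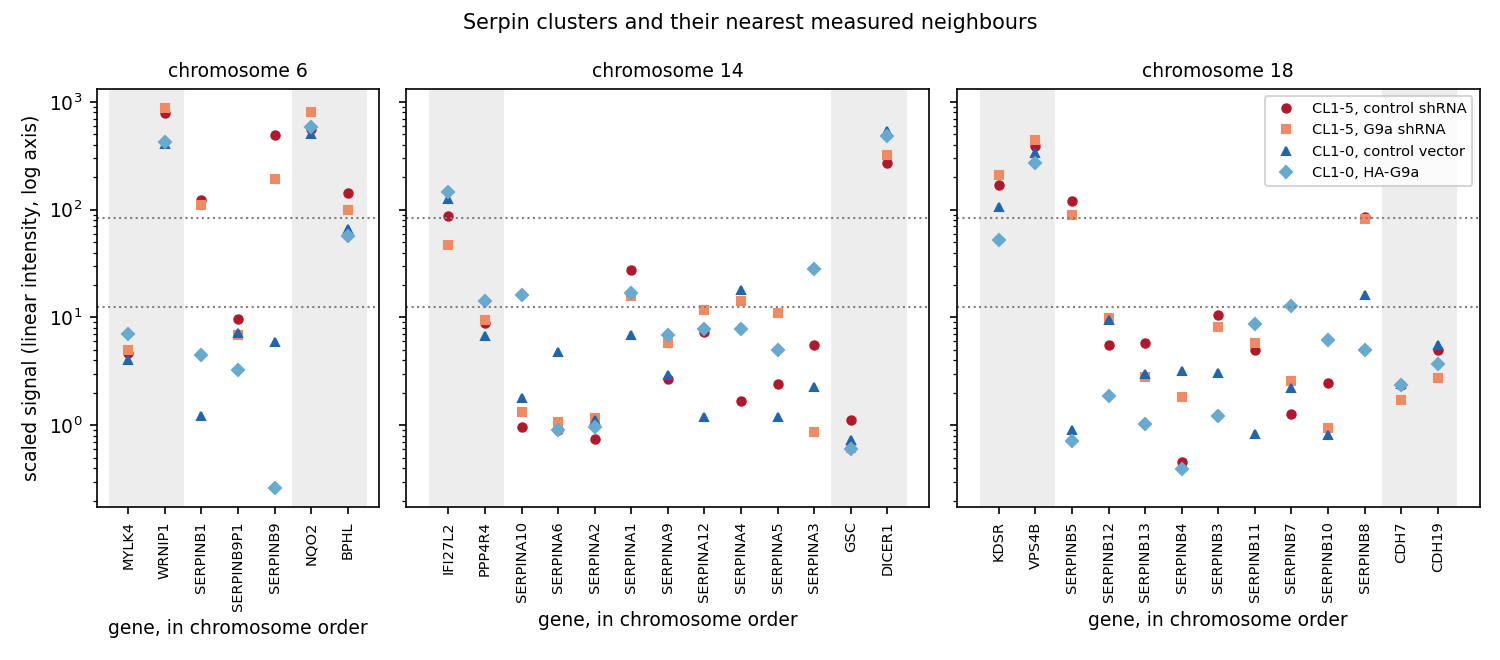
Scaled signal (linear intensity, log axis) of the serpin genes in the rows on chromosomes 6, 14 and 18 and of the nearest measured neighbours (grey background), in chromosome order and not to distance, with 1 point per array. Dotted lines mark 12.4 and 83.8. SERPINB1, SERPINB9, SERPINB5 and SERPINB8 have CL1-5 points near or above 83.8 and CL1-0 points near or below 12.4, which their bright neighbours on both chromosomes do not show.

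Promoter windows of bright serpins held more CpG than those of dim and background serpins, a description given with no test. Of the 31 members 23 had windows in the RefSeq table, 33 windows in all. The 9 windows of 7 bright members had a median of 27 CpG, and 2 of the 9 had under 10. The 9 windows of 5 dim members had a median of 3, with 8 of the 9 under 10. The 15 windows of 11 background members also had a median of 3, and all 15 had under 10. Of all 35116 windows 43.6% had under 10. Among bright members the lowest counts were 8, in 1 of the 2 windows of SERPINE2, whose other window held 31, and 9 in SERPINB8. SERPINB5 held 16 and SERPINI1 14. SERPINH1 had 28 in each of its 2 windows, which overlap. Windows of one gene can share sequence and are not independent, and SERPINA2, SERPINB9P1, SERPINB10, SERPINB11, SERPINC1, SERPINF1, SERPINF2 and SERPING1 are not included.

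**Figure D4:**
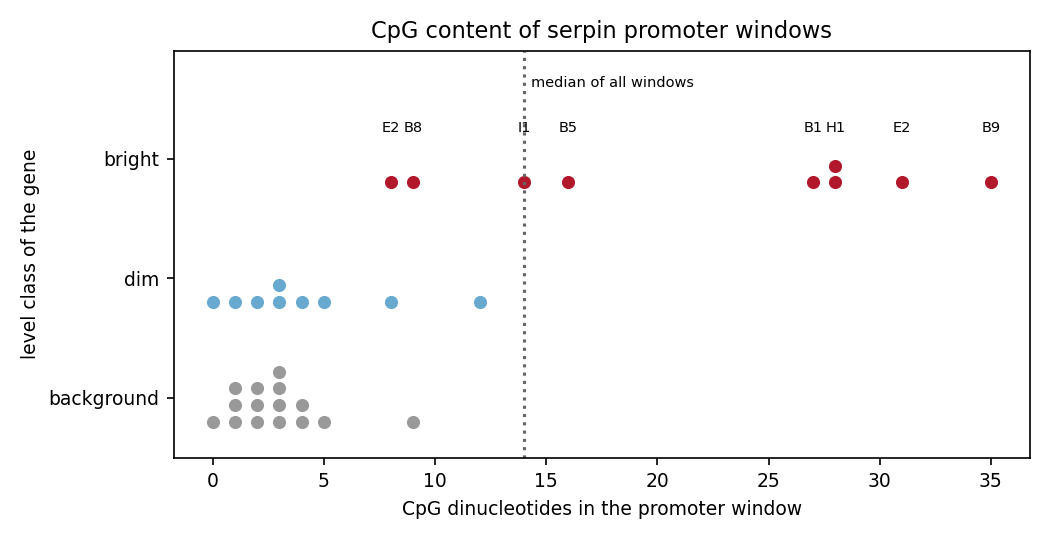
Number of CpG dinucleotides in each of the 33 serpin promoter windows (250 bases before to 50 after the start), stacked by the level class of the gene, with the median of all windows, 14, as a dotted line. Bright members are labelled without the SERPIN prefix. Every dim and background window lies left of the line, and 6 of the 9 bright windows lie right of it.

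The proteases that serpins act on differed between the lines in single genes. The lists of partners used here follow textbook roles. The serine protease list held mostly targets of clades A, C, D, E and F. It also held C1R, C1S and FURIN, on which SERPING1 and SERPINB8 act. Of its 35 genes on the array, 21 were tested by limma and 1 was called higher in CL1-5. That gene was PRSS3, a trypsin, with signals of 912, 1020, 10.2 and 5.32 (difference 7.03, SE 0.39, limma adjusted p = 0.0136). PRSS3 passed the filter through the CL1-5 arrays alone, so a difference was built into its selection. PLAU, the urokinase that SERPINE2 inhibits, had 2380, 2170, 18.1 and 161, high on both CL1-5 arrays and higher with HA-G9a than with vector, but its limma adjusted p was 0.101. PRSS2 had 218, 237, 2.89 and 13.4. After the knockdown 2 of 15 measured (CTSG and TMPRSS2) were higher by 2-fold or more and 1 (MASP1) lower. Over all genes measured 7.33% were higher and 8.29% lower. With HA-G9a 3 of 18 were higher and 2 lower, against 6.04% and 3.91% of all genes measured. CTSG, TMPRSS2 and MASP1 passed the filter in CL1-5 through the higher array alone, with signals of at most 20.5 there. In CL1-0 the same held for PRSS2 and C1S, which were higher with HA-G9a, and for CTSG and MASP2, which were lower. The medians of the list were -0.07 and -0.14.

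Intracellular proteases, the field of clade B, were mixed. Of 10 tested, limma called CASP4, an inflammatory caspase, higher in CL1-5 (2.97, SE 0.29, limma adjusted p = 0.0326) and CTSH, a lysosomal cathepsin, lower (-3.63, SE 0.42, limma adjusted p = 0.0422). CASP4 passed the filter through the CL1-5 arrays alone, so a difference was built into its selection. CTSB, cathepsin B, had 2210 in the CL1-5 control and 573 with G9a shRNA (log2 ratio -1.95). CASP1 was at least 2-fold higher in each perturbation, from 13.3 to 27.3 and from 2.0 to 15.2. In CL1-0 it passed the filter through the HA-G9a array alone. In the knockdown 2 of 9 were past 2-fold on the higher side and 2 on the lower, with a median of 0.28. Over all genes measured the shares were 7.33% and 8.29%. With HA-G9a 1 of 9 was higher and 2 lower, with a median of -0.03, against 6.04% and 3.91% of all genes measured. CTSG and CTSH in CL1-5, and CTSG and CTSS in CL1-0, passed the filter through the higher array alone. Leukocyte markers, which stand for the cells that make the elastase and granzymes targeted by SERPINB1 and SERPINB9, summed to at most 17.8 on any array with none of the 4 at the median.

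Receptors and cofactors that bind serpins or their protease complexes were measured for 13 of 16 on the array in each perturbation. THBD, thrombomodulin, which turns thrombin towards protein C, had 1200, 1050, 4.55 and 7.03. It was the 1 gene of the list that limma called (7.63, SE 0.31, limma adjusted p = 0.00875). THBD passed the filter through the CL1-5 arrays alone, so a difference was built into its selection. Endothelial markers did not move as a set. PECAM1 had 336, 64.8, 14 and 1.78, and CDH5 had 65.8, 4.17, 5.68 and 2.12. TEK went the other way between the lines, with 1.96, 2.02, 6.97 and 17.4, and VWF stayed at or below 11. The sum over 4 markers was 406, 72.8, 37.6 and 26.0. After the knockdown PECAM1 had a log2 ratio of -2.37, against -0.2 for THBD. The part of such cells in the serpin differences was not tested. After the knockdown SORL1 and LRPAP1 were at least 2-fold higher (1.67 and 1.31) and SDC1 and VLDLR lower (-2.40 and -1.84), with a median of -0.20. VLDLR passed the filter there through the control array alone. With HA-G9a NRP1 was higher (2.22) and none was lower, with a median of 0.27. Over all genes measured 7.33% were higher and 8.29% lower after the knockdown, and 6.04% and 3.91% with HA-G9a.

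Genes of procollagen maturation, the pathway of SERPINH1, did not share its low signal after the knockdown. Of 20 measured, 2 were at least 2-fold higher (PCOLCE at 1.91 and P3H4 at 1.28) and 2 lower (BMP1 at -1.31 and LOX at -1.12), with a median of -0.01, the same as over all genes. PCOLCE and LOX passed the filter there through the higher array alone. Over all genes measured 7.33% were higher and 8.29% lower. With HA-G9a 2 of 21 were higher, P3H2 with 100 against 3.04 and LOXL2 with 328 against 100, and P3H3 was lower. Over all genes measured the shares were 6.04% and 3.91%. P3H2 and P3H3 passed the filter in CL1-0 through the higher array alone, so a difference was built into their selection. Between the lines limma called LOX, a collagen cross-linking oxidase, lower in CL1-5 (-4.19, SE 0.44, limma adjusted p = 0.0354).

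Protease inhibitors of other families are also given from a fixed list. After the knockdown 4 of its 14 measured genes were lower by 2-fold or more and 1 was higher, and the median was -0.36. Over all genes measured 8.29% were lower and 7.33% higher. TIMP3, a matrix-bound inhibitor of metalloproteinases, was 38.0 after the knockdown and 2090 in the control, a log2 ratio of -5.78. TIMP2 was at -2.00, WFDC2 at -1.39 and SPINT2 at -1.11. WFDC2 and SPINT2 passed the filter there through the control array alone. TFPI, the inhibitor of tissue factor, was higher, at 2.31. With HA-G9a TFPI2 (1.82) and TIMP1 (1.79) were higher and CST4 was lower (-2.26), of 16 measured. Over all genes measured 6.04% were higher and 3.91% lower there. CST4 passed the filter in CL1-0 through the vector array alone. TFPI2 had 1.21, 0.873, 75 and 265, and limma called it lower in CL1-5 (-5.41, SE 0.67, limma adjusted p = 0.0480). Between the lines it passed the filter through the CL1-0 arrays alone, so a difference was built into its selection.

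Factors known to regulate serpin genes were measured for all 20 on the array. After the knockdown FOS was at least 2-fold higher (1.39) and EPAS1, JUN and IRF9 were lower (-1.32, -1.21 and -1.13), with a median of -0.12. With HA-G9a FOS, EPAS1, FOSL1, KLF4 and SMAD3 were higher, at 2.12, 1.94, 1.89, 1.79 and 1.23, and none was lower. Over all genes measured 6.04% were higher and 3.91% lower with HA-G9a, against 7.33% and 8.29% after the knockdown. FOS passed the filter through the HA-G9a array alone. Between the control arrays 9 were at least 2-fold higher in CL1-5 and 1 lower, against 12.7% and 13.3% of all genes measured. The AP-1 genes of the list were mixed. JUN had 1470, 634, 102 and 93.8 and FOSL1 1600, 1040, 63.9 and 237, both higher on the CL1-5 arrays, FOS was dim at 14.8, 38.9, 1.78 and 14.4, and JUNB was lower on the CL1-5 arrays at 61.4, 69.1, 110 and 185. At an adjusted p under 0.05 limma called 0 of the 20. JUN had a limma adjusted p of 0.0597, FOSL1 of 0.105, JUNB of 0.160 and FOS of 0.326.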

How the data were processed

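Total RNA of 4 cell populations was hybridised to 1 Affymetrix array each, per the labels. The authors deposited linear intensity values for 54675 probe sets. The submitters' processing notes name MAS5; its settings and detection calls are not given. Serpin members, gene lists and markers were chosen with earlier results of these data known. The array's annotation table, updated by Entrez identifier, gave 41097 probe sets 1 symbol and 1801 several; 11777 were not listed. Y-linked probe sets and 1 X-linked transcript (58 in all) were left out. A gene took its brightest single-gene probe set by mean signal. Each array was divided by its median ratio to the geometric mean of the arrays, signals under 3.33 were raised to it, and log2 was taken. A gene counted in a comparison when its brighter array reached 12.4, and 2-fold was the threshold with no test. Members above 12.4 on any array are named with 4 signals, the others by range, and of each list those past 2-fold or called. Lines were compared with limma 3.58.1 (R 4.3.3; lmFit, eBayes, Benjamini-Hochberg at 0.05), tested on simulated data. Python 3.11.15 with pandas 2.3.3 and NumPy 2.4.6 did the rest. Alternatives covered scaling, floor, filter, probe set choice, threshold, model and each array left out.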

Additional observations from a re-analysis of the deposited data

How the results depend on the processing

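No member past its threshold changed direction in any setting run, but some others did. After the knockdown SERPINB1 (-0.17) was at 0.24 as deposited and 0.11 scaled on the hybridization controls, and SERPINB8 (-0.06) at 0.35, 0.22 and, with the mean of all passing probe sets, 0.05. With HA-G9a SERPINI1 (-0.19) was at 0.08 scaled on the hybridization controls. In the line difference SERPINA1 (0.95) was at -0.04 without shared-sequence probe sets (_x_at and _s_at), and with 1 array left out SERPINA3 (-1.17) ran from -2.70 to 0.37 (without HA-G9a) and SERPINA4 (-0.79) from -1.83 to 0.26 (without the CL1-5 control). Without HA-G9a SERPINA10 and SERPINB7 were at 0.0, at the floor on all 3 arrays. After the knockdown 1 member was at least 2-fold higher in the chosen setting, and 5 were with signals as deposited, 2 with arrays at one median, 2 with quantile normalization, 2 scaled on the hybridization controls, 4 with no filter and 2 at a threshold of 1.5-fold, while 0 were with log2(signal + 16) and 0 with the filter at the 75th percentile. The 2 lower members became 1 as deposited, 1 with the mean of all passing probe sets and 0 at 4-fold. With HA-G9a the 5 higher members became 2 with log2(signal + 16), 1 at the 75th percentile, 9 with no filter and 2 at 4-fold, and the 3 lower became 1, 0, 5 and 1 under the same settings. Between the controls the 3 lower members became 1 with the filter at the 75th percentile. The 3 members that limma called higher in CL1-5 became 0 in the model with line and G9a arm, 1 with the floor at the 10th percentile (SERPINB5) and 0 with no filter, and the 1 lower became 0 in each of these. Leaving out any 1 array gave 0 in both directions. SERPINB8 was called as well with an intensity trend, with scaling on the hybridization controls and with log2(signal + 16), at limma adjusted p of 0.0326, 0.0452 and 0.0181. Over the 16 alternatives the limma adjusted p of SERPINB1 ran from 0.00281 to 0.291, of SERPINB5 from 0.00262 to 0.291, of SERPINB9 from 0.00441 to 0.291 and of SERPING1 from 0.00942 to 0.291. The cause of these changes was not tested, apart from the fewer samples of the settings without an array. Ratios against signals near the floor are the least certain. No paired analysis was possible because each group has 1 array and the labels give no replicate numbers.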
